A study of Rattus norvegicus with 2 samples.

Results

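The SOX transcription factors examined here are 10 genes, taken by symbol from the expression table of the series: Sox10, Sox8, Sox9, Sox5, Sox6, Sox13, Sox4, Sox11, Sox2 and Sox3. All 10 were found among the 18049 genes of the table, and all 10 are among the 13518 measured genes, which had a mean of at least 1 CPM (counts per scaled library total, the unit of the levels below) over both libraries. They were grouped by the standard subgroups of the family, which are SoxE (Sox10, Sox8, Sox9), SoxD (Sox5, Sox6, Sox13), SoxC (Sox4, Sox11) and SoxB1 (Sox2, Sox3). The selection names the SoxF subgroup as well but lists no SoxF gene, and SoxF genes are given below with the other SOX genes of the table.

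The cells were wild type rat oligodendrocyte precursor cells (OPCs) from the cortex (labelled forebrain) of pups of postnatal day 2 to 4, isolated by immunopanning with antibodies against GalC and A2B5. The control group (siSCR) was electroporated with a scrambled siRNA and the other group (siHsc70) with a single siRNA sequence against Hsc70, the constitutive HSP70 chaperone encoded by Hspa8. Both groups were kept in differentiation medium, which contained 60 nM of the thyroid hormone T3 and lacked the growth factors PDGF-AA, bFGF and NT3, and the RNA was taken at day 2 from cells described as immature oligodendrocytes. There was 1 library per group, and the sources used here do not say whether a library pools several cultures or animals. The treatment protocol gives the siRNA as a run of 19 bases, shown because it is the agent whose effect the comparison addresses.

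siHsc70: TCATGACTGTCCTCATCAA

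SOX proteins share a DNA-binding domain, the HMG box, which bends DNA at short A/T-rich sites, and they act mostly together with partner factors. In the oligodendrocyte lineage SOX9 helps to specify precursors, SOX10 with the related SOX8 switches on myelin genes, and SOX5 and SOX6 are known to hold back SOXE activity in precursors. SOX4 and SOX11 are factors of immature neural cells, and SOX2 and SOX3 are factors of neural stem and precursor cells that oligodendrocyte precursors retain. The study's title concerns the stability of the SOX10 protein. The values here are transcript levels and say nothing of protein.

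In the siHsc70 library 4 of the 10 SOX genes were at least 2-fold lower, namely Sox10, Sox6, Sox8 and Sox13, and 0 were at least 2-fold higher. The same rule took in 5.14% of all measured genes on the lower side and 2.29% on the higher side. At a rule of 1.5-fold, 7 SOX genes were lower and 1, Sox9, was higher, against 12% and 9.65% of all measured genes. The median difference of the 10 genes was -0.74 on the log2(CPM + 1) scale, and that of all measured genes was -0.0034. The subgroups were not uniform, since 2 of the 3 SoxE genes and 2 of the 3 SoxD genes passed the 2-fold rule but 0 genes of SoxC or SoxB1 did. With 1 library per group, whether any of these differences exceeds the spread between cultures could not be tested, and no p-value is given. Intervals beside the folds are 95% counting intervals, which cover the sampling of reads in these libraries only. PCR copies are not independent molecules. In bulk RNA, fewer cells of a type and less RNA per cell cannot be told apart.

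The libraries were of similar depth, with total estimated counts of 19085626 (siSCR) and 18130817 (siHsc70). A count of 0 allows up to 3 counts, or 0.156 CPM and 0.167 CPM. The targeted gene, Hspa8, had 1399 CPM with the scrambled siRNA and 507 CPM with siHsc70, 2.76-fold lower (2.69 to 2.83). Of the markers of the labelled cell type, all 6 listed OPC genes were measured, and 5 of them were lower in siHsc70, from -1.92 (Lhfpl3) to -0.34 (Ptprz1) on the log2(CPM + 1) scale, while Olig1 was at 0.17. Mbp, a myelin gene, was at 1968 and 414 CPM, whereas Opalin, of mature oligodendrocytes, was below 1 CPM in both libraries.

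Sox10, the SoxE gene that drives myelin gene expression, had an estimated count of 10824 in siSCR and 1779 in siHsc70. Its level was 563 CPM against 98.9 CPM, or 428 TPM against 68.4 TPM. TPM, the deposited transcript abundance, is scaled for transcript length and is used here to compare levels between genes. The gene was 5.69-fold lower in siHsc70 (5.41 to 5.98). It had the 51st lowest difference of the 13518 measured genes. In the order of TPM levels it stood at place 323 in siSCR and at place 2863 in siHsc70, from within the highest 2.39% to within the highest 21.2% of measured genes.

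Sox8, a close relative that acts partly in place of Sox10, had estimated counts of 3904 and 1346, or 203 CPM against 74.8 CPM. It was 2.71-fold lower (2.55 to 2.89), the second SoxE gene past the rule of size. Sox9, which is needed earlier in the lineage and is also a factor of astrocytes, went the other way. Its estimated counts were 1935 in siSCR and 2785 in siHsc70, and its level was 101 CPM against 155 CPM. It was 1.54-fold higher (1.45 to 1.63), short of the 2-fold rule, and was the only one of the 10 genes whose counting interval lay wholly above 1. The log2 ratios of Sox9 and Sox10 were 3.13 apart, the widest spread inside any of the subgroups.

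The order of the 3 SoxE genes by level differed between the libraries. In siSCR the TPM of Sox10 was 8.08 times that of Sox9 and 3.21 times that of Sox8. In siHsc70 Sox10 was at 0.924 times the TPM of Sox9, at 68.4 against 74.0 TPM, and the counting intervals of these levels overlapped (65.2 to 71.6 and 71.3 to 76.8). Sox10 made up 69.7% of the summed SoxE TPM in siSCR and 36.6% in siHsc70, while Sox9 made up 8.62% and 39.6%. Sox8 kept a similar share, 21.7% and 23.9%. Summed over the subgroup, SoxE counts were 2.64-fold lower (2.56 to 2.72) and SoxE TPM went from 615 to 187.

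**Figure D1:**
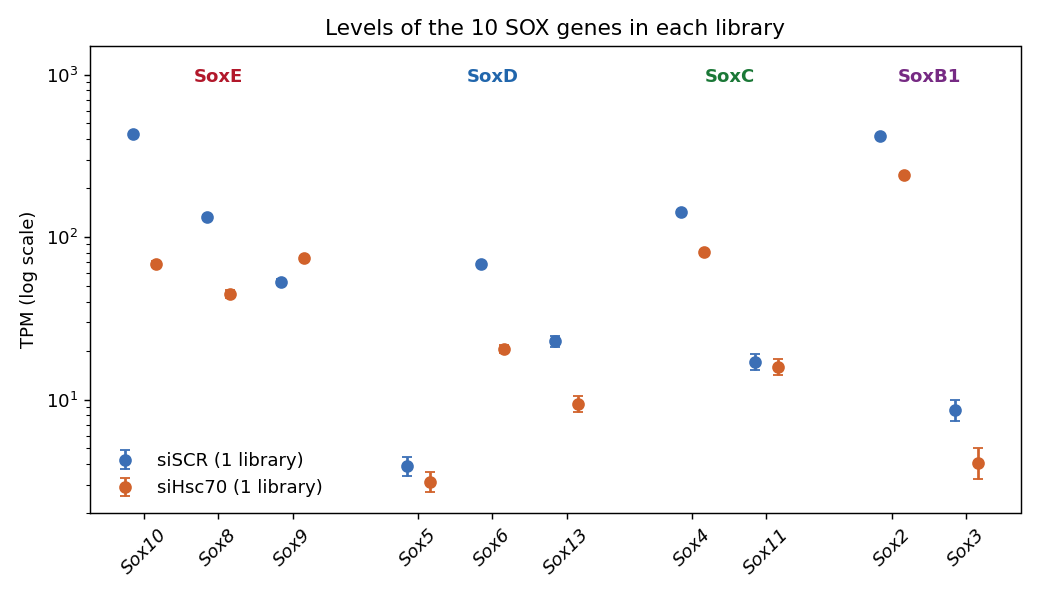
TPM (log axis) of the 10 SOX genes in the siSCR and siHsc70 libraries, 1 point per library, with bars for the 95% counting interval of the estimated count. Sox10 is at 428 TPM in siSCR and 68.4 TPM in siHsc70, whereas Sox9 is at 53.0 and 74.0 TPM.

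Among the SoxD genes, which encode long SOX proteins without an activation or repression domain of their own, Sox6 was the most abundant. It had estimated counts of 4148 in siSCR and 1271 in siHsc70, or 216 CPM against 70.7 CPM, and was 3.05-fold lower (2.86 to 3.25). Only Sox10 differed by more among the 10 genes. Sox13, a less studied member of the subgroup, had estimated counts of 712 and 297. At 37.0 CPM against 16.5 CPM it was 2.24-fold lower (1.95 to 2.57), with an interval that included 2-fold. It was the member nearest to the rule on the inside, at -1.12 on the log2(CPM + 1) scale. The nearest on the outside was Sox3 at -0.80.

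Sox5, which acts alongside Sox6 in restraining SOXE factors, was low in both libraries. Its estimated counts were 233 in siSCR and 200 in siHsc70, its level was 12.1 CPM against 11.1 CPM, and the ratio of 0.918 had an interval that included 1 (0.756 to 1.11). A difference of Sox5 was thus not detectable at this depth. The TPM of Sox6 was 17.5 times that of Sox5 in siSCR and 6.53 times in siHsc70. SoxD counts in sum were 2.69-fold lower (2.55 to 2.84), close to the 2.64-fold of SoxE, and the subgroup took 7.31% of the summed TPM of the 10 genes in siSCR and 5.86% in siHsc70.

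RefSeq promoter entries (assembly GRCr8, 250 bases before to 50 bases after the annotated start) were matched for 5 of the 10 genes: Sox6, Sox13, Sox11, Sox2 and Sox3. Of these, Sox6 and Sox13 are the ones at least 2-fold lower, and Sox11 is the one with no detectable difference. Those 3 are printed so that the lower genes can be read beside that one. Capitals mark the core SOX site, searched on both strands as ACAAT or ACAAAG.

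Sox6 (chr1:179665322-179665621, minus strand): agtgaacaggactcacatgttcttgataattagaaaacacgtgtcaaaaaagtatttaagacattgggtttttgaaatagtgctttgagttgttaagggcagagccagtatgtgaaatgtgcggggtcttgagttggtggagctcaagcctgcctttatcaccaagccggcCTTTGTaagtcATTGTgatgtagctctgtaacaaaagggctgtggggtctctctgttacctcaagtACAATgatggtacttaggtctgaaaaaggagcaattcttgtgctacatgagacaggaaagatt

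Sox13 (chr13:47427523-47427822, minus strand): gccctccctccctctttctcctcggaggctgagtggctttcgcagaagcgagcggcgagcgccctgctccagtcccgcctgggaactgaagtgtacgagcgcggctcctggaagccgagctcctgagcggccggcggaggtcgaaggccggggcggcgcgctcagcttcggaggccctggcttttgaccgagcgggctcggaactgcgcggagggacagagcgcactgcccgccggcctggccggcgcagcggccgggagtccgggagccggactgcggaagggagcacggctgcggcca

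Sox11 (chr6:49738745-49739044, minus strand): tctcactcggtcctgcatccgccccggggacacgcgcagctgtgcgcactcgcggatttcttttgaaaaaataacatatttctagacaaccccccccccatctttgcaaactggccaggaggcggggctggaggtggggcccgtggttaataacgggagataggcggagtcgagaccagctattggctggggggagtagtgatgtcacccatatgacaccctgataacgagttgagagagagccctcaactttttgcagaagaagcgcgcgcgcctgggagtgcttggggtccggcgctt

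The Sox6 window held 3 matches, with first bases 79, 68 and 13 bases before the start, and the windows of Sox13, Sox11, Sox2 and Sox3 held 0. Of all 33469 promoters of this length in the table, 44.9% hold at least 1 match. A CCAAT box (CCAAT, both strands) was found in 4 of the 5 windows, all but that of Sox13, against 37.5% of all promoters. The heat shock element pair GAANNTTC, searched because an HSP70 chaperone was targeted, was found in 0 of the 5 windows and in 8.59% of all promoters. The windows also differed in base composition, with 42.0% G and C in Sox6, 73.0% in Sox13 and 58.0% in Sox11. Such matches describe letters in these windows and are not evidence of binding.

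The SoxC genes were both short of the 2-fold rule. Sox4, which restrains oligodendrocyte differentiation when kept active, had estimated counts of 6099 in siSCR and 3543 in siHsc70. It was at 317 CPM against 197 CPM and was 1.61-fold lower (1.54 to 1.68), below the 2-fold rule. Sox11, known mainly from immature neurons, had estimated counts of 307 and 296, or 16.0 CPM against 16.5 CPM. Its ratio of 1.03 had an interval of 0.876 to 1.21, so no difference was detectable at this depth. With the deposited TPM, Sox11 was at 17.0 in siSCR and 15.9 in siHsc70, so its direction depended on the scaling. On the TPM scale the median of all measured genes was itself at -0.13 (log2). The TPM of Sox4 was 8.42 times that of Sox11 in siSCR and 5.07 times in siHsc70.

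The SoxB1 genes were both lower by less than 2-fold. Sox2, a factor of neural stem cells, had estimated counts of 8704 in siSCR and 5165 in siHsc70. Its level was 452 CPM against 287 CPM, 1.58-fold lower (1.52 to 1.63). In the rat annotation, Sox2 lies within the span of a gene listed as LOC103691527, which was at 72.3 and 43.1 CPM, 1.68-fold lower (1.54 to 1.83). Without a stated strand setting the reads of these overlapping genes cannot be told apart with certainty, and their sum was 1.59-fold lower (1.54 to 1.64). Sox3, which overlaps Sox2 in function, was far less abundant than Sox2, with estimated counts of 169 and 83. At 8.78 CPM against 4.62 CPM it was 1.90-fold lower, with a wide interval (1.45 to 2.51) that included 2-fold. Sox2 had a TPM 48.7 times that of Sox3 in siSCR and 58.9 times in siHsc70.

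**Figure D2:**
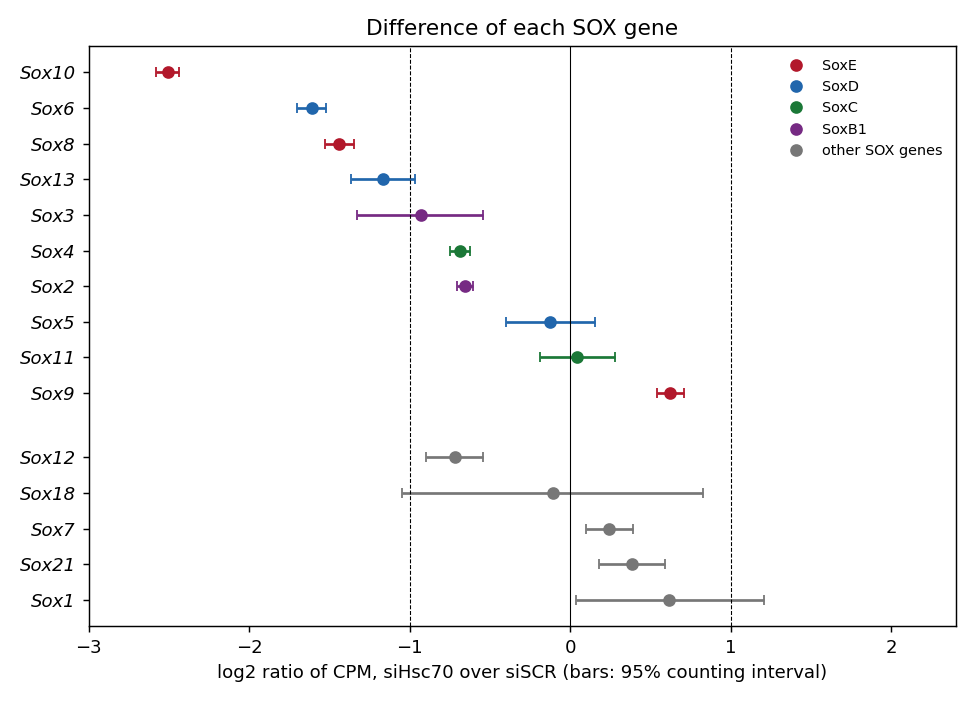
Log2 ratio of CPM in siHsc70 over siSCR for the 10 SOX genes (coloured by subgroup) and for 5 other measured SOX genes (grey), with bars for the 95% counting interval and dashed lines at 2-fold. Of the 10 genes, 7 have intervals below 0 on this axis, Sox9 has one above 0, and those of Sox5 and Sox11 include 0.

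Placed among all measured genes, the SOX genes past the rule lay below the 5th percentile. This nearly follows from the rule itself, which 5.14% of all measured genes met on the lower side. Sox6 had the 256th lowest difference, Sox8 the 324th and Sox13 the 559th of 13518. The 5th and 95th percentiles of all measured genes were -1.02 and 0.80, and the 10 SOX genes ranged from -2.50 to 0.62. Of the 10 genes 9 had a mean of at least 10 CPM, where single reads weigh little, and Sox3 was the exception.

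**Figure D3:**
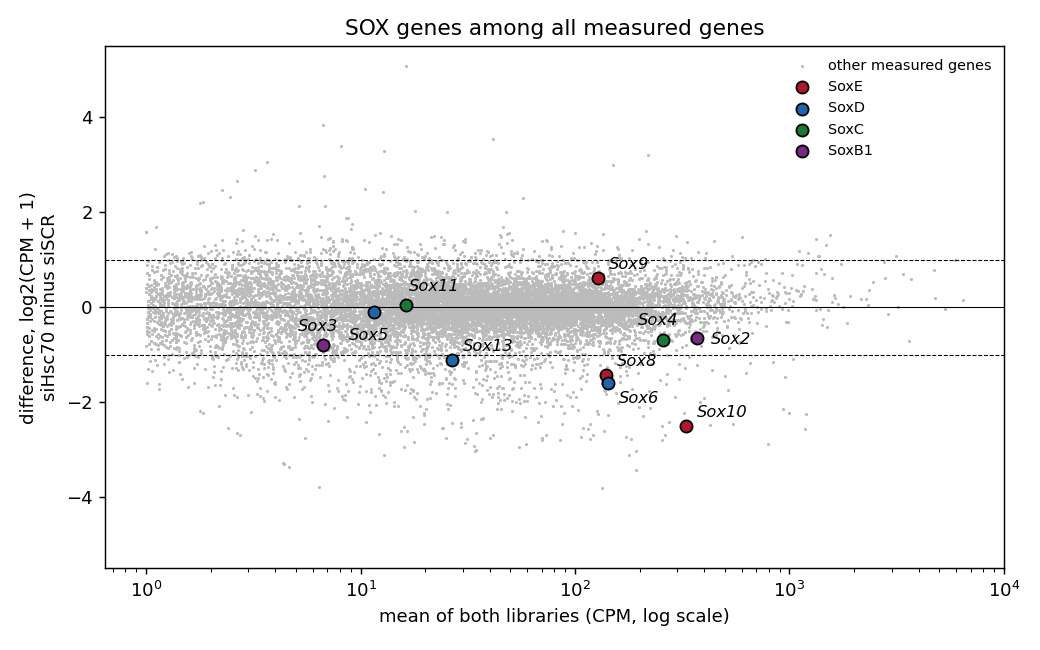
Difference in log2(CPM + 1), siHsc70 minus siSCR, against the mean CPM of both libraries (log axis) for the 13518 measured genes in grey and the 10 SOX genes in colour, with dashed lines at the 2-fold rule (2 genes lie outside the plotted range). Sox10, Sox6, Sox8 and Sox13 lie below the lower dashed line.

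The make-up of the SOX transcripts shifted with these differences. The summed TPM of the 10 genes was 1295 in siSCR and 561 in siHsc70. Their summed counts were 2.06-fold lower (2.03 to 2.10), and those of the 9 genes other than Sox10 were 1.63-fold lower (1.60 to 1.67). Sox10 took 33.1% of the summed TPM in siSCR and 12.2% in siHsc70, and Sox2 took 32.2% and 42.9%. By subgroup, SoxE went from 47.5% to 33.3%, SoxB1 from 32.9% to 43.6% and SoxC from 12.3% to 17.2%. These are shares within a library and do not depend on the scaling between libraries.

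**Figure D4:**
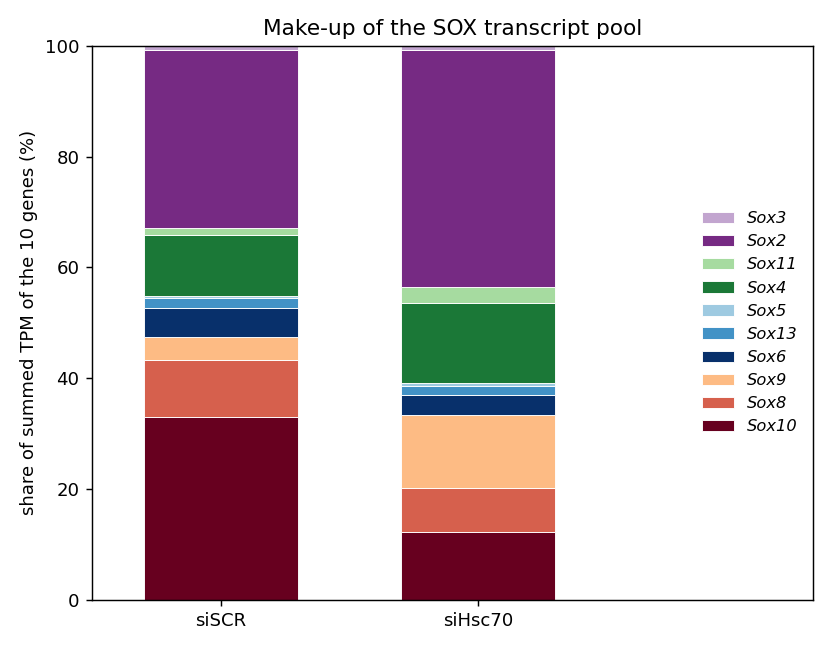
Share (%) of the summed TPM of the 10 SOX genes taken by each gene in the siSCR library and in the siHsc70 library, stacked from 0 to 100. Sox10 takes 33.1% in siSCR and 12.2% in siHsc70, Sox9 takes 4.09% and 13.2%, and Sox2 takes 32.2% and 42.9%.

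In the order of TPM levels over all SOX genes, Sox10 (428 TPM) and Sox2 (418 TPM) led in siSCR with overlapping intervals, followed by Sox4 (143 TPM) and Sox8 (133 TPM), whose intervals were apart. In siHsc70 Sox2 led alone at 240 TPM, followed by Sox4 (80.5 TPM), Sox9 and Sox10, of which only Sox9 and Sox10 overlapped. Sox8 was next in siHsc70 at 44.6 TPM, level with the SoxC gene Sox12 at 44.6 TPM. Sox5 was the lowest of the 10 genes in both libraries, at 3.89 and 3.12 TPM, and its interval overlapped that of Sox3 (4.08 TPM) in siHsc70 but not in siSCR.

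Of 10 further SOX genes looked up, 9 were found (all but Sry) and 5 were measured. Of these 5, 0 were at least 2-fold lower or higher. Over all measured genes the shares were 5.14% lower and 2.29% higher, so 0 of 5 is near those shares. Their median difference was 0.24. Sox12, the third SoxC gene, was at 37.5 and 22.7 CPM, 1.65-fold lower (1.46 to 1.86), beside 1.61-fold for Sox4. Sox1, the third SoxB1 gene, had low estimated counts of 44 and 63, or 2.29 and 3.50 CPM. Its ratio was 1.53 (1.03 to 2.31), so in these 2 libraries it did not share the lower levels of Sox2 and Sox3. Sox21, a SoxB2 gene that counteracts SOXB1 factors, was at 18.4 and 24.1 CPM, 1.31-fold higher (1.13 to 1.51). Of the SoxF genes, which are best known from blood vessels, Sox7 was at 37.6 and 44.5 CPM (ratio 1.18, 1.07 to 1.31). Sox18 was at 1.20 and 1.11 CPM with an interval that included 1. Sox17, Sox14, Sox15 and Sox30 were each below 1 CPM in both libraries.

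Beyond the family itself, genes reported elsewhere as SOX10 targets in the central nervous system were mostly lower. Of 12 listed genes 11 were measured, of which 8 were at least 2-fold lower and 0 higher, with a median of -1.61. The shares over all measured genes were 5.14% lower and 2.29% higher. Myrf, encoding a myelin gene activator that works with SOX10, was at 446 and 62.8 CPM, 7.09-fold lower (6.66 to 7.55). The 3 measured targets short of the rule, named after their values were seen, were Pdgfra (213 and 119 CPM), Sufu (63.7 and 57.9 CPM) and Ednrb (322 and 363 CPM). This list overlaps the oligodendrocyte marker lists below and is not independent of them.

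Genes for SOX10 partners and for the turnover of SOX proteins were listed as well. Of 21 partner and chromatin cofactor genes, all measured, 2 were at least 2-fold lower and 0 higher, with a median of -0.18. For this list and the next, the matching shares over the whole measured set were 5.14% lower and 2.29% higher. The 2 lower partner genes were Nkx2-2, a homeobox factor of the lineage, at 199 and 35.5 CPM (5.61-fold lower, 5.15 to 6.10), and Tcf7l2, a WNT pathway factor of newly formed oligodendrocytes, at 98.9 and 29.9 CPM. Of 15 genes for ubiquitin ligases, deubiquitinases, kinases and SUMO enzymes that act on SOX proteins, together with Hikeshi, 0 passed the 2-fold rule in either direction, and the median was -0.018. The member furthest from 0 was Pias1, a SUMO ligase gene, at 35.5 and 23.9 CPM (1.49-fold lower, 1.32 to 1.68). Fbxw7 and Hikeshi, which the study's title names, were at 26.5 and 25.2 CPM and at 41.3 and 44.3 CPM, each with a ratio whose interval included 1.

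Genes linked to the other SOX factors showed no common direction. Their counts stand beside the 5.14% of all measured genes at least 2-fold lower and the 2.29% at least 2-fold higher. Of 9 measured genes linked to SOX9, 2 were at least 2-fold lower and 0 higher, with a median of -0.017. The lower ones were Mmd2, a SOX9-dependent gene of astrocytes, at 62.8 and 17.0 CPM, and Acan, encoding the proteoglycan aggrecan, at 6.44 and 1.45 CPM. Of 6 measured genes linked to SOXC, Dcx, a gene of migrating neuroblasts, was 5.32-fold lower (4.35 to 6.57) and Tead2, a Hippo pathway factor, was 2.35-fold higher (1.99 to 2.79), with a median of -0.079. Of 9 measured neural stem cell genes linked to SOXB1, Nes, encoding the filament protein nestin, was 2.11-fold higher (2.07 to 2.15), at 871 and 1835 CPM, and 0 were at least 2-fold lower. That list's median was 0.38, while Sox2 and Sox3 themselves were lower.

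**Figure D5:**
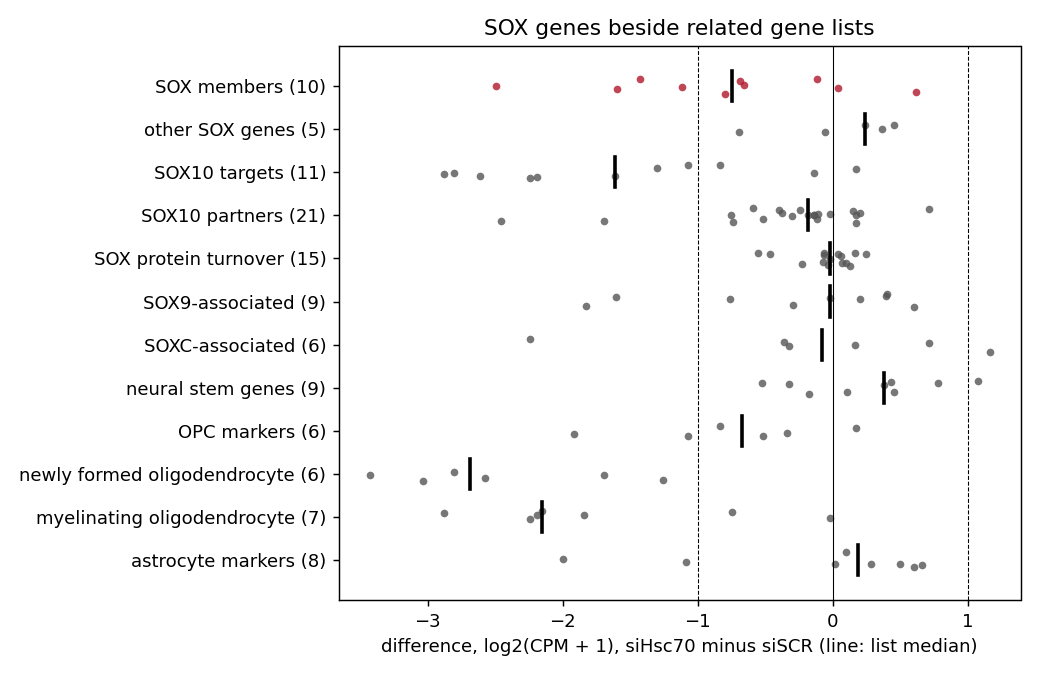
Difference in log2(CPM + 1), siHsc70 minus siSCR, of every measured gene in 12 of the lists, 1 point per gene with a black line at the list median, the number measured in brackets and dashed lines at the 2-fold rule. The medians of the SOX10 target list (-1.61) and of the newly formed (-2.69) and myelinating oligodendrocyte (-2.16) lists lie below that of the 10 SOX genes (-0.74).

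Markers of the cell stages and of other cells differed between the libraries as well. Some of them also stand in the lists above, so these counts are not independent. Tcf7l2, Olig1 and Olig2 are among the SOX10 partners, S100b among the genes linked to SOX9, and Dcx and Tubb3 among those linked to SOXC. For the marker counts here and below, the rule took in 5.14% of all measured genes as lower and 2.29% as higher. All 6 markers of newly formed oligodendrocytes were at least 2-fold lower, and their summed level was 3212 CPM in siSCR and 566 CPM in siHsc70. Gpr17 was furthest, at 352 and 31.8 CPM, followed by Enpp6 at 61.9 and 6.67 CPM. Of 7 measured myelinating markers 5 were at least 2-fold lower, with summed levels of 5136 and 1011 CPM, and among them Mbp was 4.75-fold lower. Of 6 OPC markers 2 were at least 2-fold lower, Lhfpl3 (listed as LOC103692025, 633 and 167 CPM) and Cspg4 (62.5 and 29.2 CPM), and the summed level was 4715 and 3683 CPM. The part of these shifts in the lower Sox10, Sox8, Sox6 and Sox13 levels was not tested.

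Beside the higher Sox9, astrocyte markers were mixed. Of 8 measured, 2 were at least 2-fold lower, Aqp4 (85.0 and 20.6 CPM) and Gfap (1416 and 667 CPM), and 0 were at least 2-fold higher, with summed levels of 3701 and 3242 CPM. The other 6 were between 0.017 and 0.66 higher on the log2(CPM + 1) scale. Their part in the Sox9 level was not tested. Neuronal markers were mixed too. Of 7 measured, 2 were at least 2-fold lower, Dcx and Syp, and 0 were at least 2-fold higher, with summed levels of 165 and 134 CPM. Snap25 was higher but short of the rule, at 10.0 and 20.1 CPM (0.93 on the log2(CPM + 1) scale). Gad1 and Tubb3 were also higher, while Rbfox3 and Syt1 were lower. Of 7 measured Schwann cell markers, Dhh was at least 2-fold higher (22.0 and 46.4 CPM) and Ngfr at least 2-fold lower (3.12 and 1.06 CPM), with summed levels of 231 and 318 CPM. Pmp22 made up most of these sums, at 180 and 247 CPM. Egr2 and Pmp22 were higher short of the rule, Prx, Pou3f1 and Cdh19 were lower, and the list median was -0.39. Fibroblast and mural markers summed to 40.7 and 101 CPM, with Col1a1 at 24.3 and 73.8 CPM and Dcn, Lum, Acta2 and Rgs5 below 1 CPM. Microglial markers summed to 4.57 and 5.95 CPM, where Tmem119 alone was measured and Aif1 was at 0 in siSCR and 0.056 CPM in siHsc70. Endothelial markers summed to 8.99 and 5.45 CPM, with Kdr at 2.29 and 0.278 CPM and Pecam1 and Cdh5 below 1 CPM.

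The genes most alike to Sox10 over both libraries were Mpzl1, a cell surface glycoprotein gene, Rnd2, a small GTPase gene, and Bcan, encoding the proteoglycan brevican. Likeness was the Euclidean distance over log2(TPM + 1) in the 2 libraries, and the distances were 0.51, 0.51 and 0.57. Mpzl1 was at 328 and 86.4 TPM, Rnd2 at 346 and 91.3 TPM, and Bcan at 311 and 53.9 TPM. None of these 3 reached the 428 TPM of Sox10 in siSCR, and with only 2 points the likeness describes level and difference alone.

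The differences of the SOX genes were set beside those of the nearest measured protein-coding gene on each side in the rat annotation. Of these 20 neighbours 3 were at least 2-fold lower and 1 was at least 2-fold higher, and their median difference was -0.34. The rule took in 5.14% of all measured genes on the lower side and 2.29% on the higher side. The neighbours of Sox10, Polr2f (22.7 and 21.1 CPM) and Pick1 (23.8 and 21.2 CPM), were at -0.10 and -0.15. Sox6, Sox13 and Sox3 each had 1 neighbour past the rule on the lower side. These were Insc (6.76 and 2.45 CPM), Plekha6 (38.6 and 14.3 CPM) and RGD1561327 (3.17 and 1.06 CPM). Tekt4, beside the lower Sox8, was the neighbour past the rule on the higher side, at 0.416 and 2.11 CPM. The neighbours of Sox5, Etnk1 and Bcat1, were at -0.47 and 0.68. The neighbours of Sox9, Kcnj2 (13.8 and 23.5 CPM) and Slc39a11 (22.8 and 27.4 CPM), were both higher, at 0.72 and 0.25. The neighbours were named by position, after the values of the SOX genes were known.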

How the data were processed

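The deposited table gives, for each of the 2 libraries, estimated counts per gene (unnormalised, not all whole), FPKM and TPM, per the file headers. The authors scaled FPKM for length and library size and TPM to a fixed total, per the file headers' names for these units. Aligner, quantifier, gene annotation and strandedness were not given in the sources used here. A mouse build, mm39, stands in the submitters' processing notes, whereas 16783 of the 18049 gene IDs matched rat RefSeq genes (GRCr8), including all 10 members with the same symbol. Estimated counts were rounded and scaled to CPM by TMM (edgeR 4.0.16, R 4.3.3), with factors of 1.01 for siSCR and 0.992 for siHsc70. DESeq2 1.42.0 was used for an alternative scaling only.

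A gene was called measured where its CPM averaged 1 or more. Differences are log2(CPM + 1), siHsc70 minus siSCR, and the rule of size is a difference of at least 1, called 2-fold. Folds are ratios of CPM without the pseudocount, with 95% exact (Clopper-Pearson) intervals. No test was run, since each group has 1 library. The members, the 17 gene lists and the rules were chosen with earlier results of these data known. The genes named are the members, the other SOX genes and Hspa8. In each list, up to 2 genes past 2-fold in each direction were added, or the gene furthest from 0. The 3 genes nearest to Sox10 over both libraries (log2(TPM + 1), mean of at least 10 CPM, LOC names left out) were also named. Other genes named were chosen after their values were seen. Some list members are counted but not reported here by name. The procedure was tested on simulated counts that held counting error only. They had no spread between cultures, so the simulation says nothing of that spread. There were 9 alternatives, and 2 more were added after seeing the data.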

Additional observations from a re-analysis of the deposited data

How the results depend on the processing

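With 1 library per group there is no replicate to leave out, and no paired analysis was possible because each group has 1 library. Sox10, Sox8, Sox6 and Sox13 stayed at least 2-fold lower under all 9 alternatives. Of these alternatives, no minimum, a minimum mean of 5 CPM and the 1.5-fold rule cannot alter a member's difference. Sox13 came nearest to the rule, at -1.02 with the deposited FPKM. Of the other members only Sox11 changed sign (-0.090 with the deposited TPM). Under the 1.5-fold rule, 7 SOX genes were lower and 1 higher, against 1626 lower and 1304 higher genes in all. The number of all genes at least 2-fold higher, 310 in the main analysis, was 518 with a pseudocount of 0.1 CPM, 189 with the deposited TPM and 202 with the deposited FPKM. The number at least 2-fold lower, 695 in the main analysis, was 898, 795 and 515 in the same order. The summed log2 difference of SoxE (-1.40) was -1.34 with upper-quartile scaling, -1.72 with TPM and -1.60 with FPKM. That of SoxD (-1.43) was -1.53 with TPM. Those of SoxC (-0.64) and SoxB1 (-0.66) were -0.58 and -0.60 with upper-quartile scaling, and -0.73 and -0.80 with TPM. The median of all genes was itself -0.13 with TPM. Adding Sox12 to SoxC or Sox1 to SoxB1, both chosen after seeing the data, gave -0.65 and -0.65. Depth limits Sox3 and Sox5 most.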

Other observations

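The estimated count per FPKM, divided by the library total, reflects the transcript length that the quantification used. For 7 of the 10 SOX genes its ratio between siHsc70 and siSCR lay between 0.998 and 1.0002. The exceptions were the 3 SoxD genes, at 1.04 for Sox5, 0.980 for Sox13 and 0.993 for Sox6. Estimated counts were whole numbers in both libraries for 7 of the 10 genes, and not for Sox9, Sox5 and Sox2.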
